A study of Homo sapiens with 6 samples.

Results

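The genes described here encode small secreted proteins that direct immune cells: 9 chemokines from the CC, CXC and CX3C families that attract leukocytes (CCL5, CXCL10, CXCL11, CXCL16, CX3CL1, CXCL1, CXCL2, CXCL8 and CCL20) and the inflammatory cytokine interleukin 6 (IL6). They were matched to the table by symbol, from a list drawn up with earlier results of these data known. Of the 10 listed genes, 9 had a row among the 22807 genes of the expression table, and CXCL1 was not analysed here. RNA was sequenced from MDA-MB-453, a HER2-positive human breast cancer cell line, after transient transfection with siRNA against DUSP6 (3 libraries) or with scrambled control siRNA (3 libraries). DUSP6 is a phosphatase that removes phosphate from the kinases ERK1 and ERK2. The study's legend names 3 different siRNAs for each group. Which library received which siRNA, and how long after transfection the RNA was taken, is not given in the sources used here. All 6 libraries were from transfected cells, so an effect that both kinds of siRNA share cannot be read from them, and the loss of DUSP6 and other effects of the DUSP6 siRNAs cannot be told apart. Nothing in the labels says that the 3 libraries of a group came from separate cultures, so the p-values measure the spread between these libraries. That spread may be technical, and it may take in differences between the siRNAs of a group.

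Chemokines bind receptors with several membrane-spanning segments on leukocytes and set the direction in which those cells move. CCL5 attracts T cells, monocytes and NK cells. CXCL10 and CXCL11 share the receptor CXCR3 with CXCL9, and these genes are textbook targets of interferon. CXCL1, CXCL2 and CXCL8 attract neutrophils through CXCR2 and are, like CCL20 and IL6, textbook targets of NF-kB and AP-1. CXCL16 and CX3CL1 differ from the rest in that they are made as membrane proteins and can be shed by the proteases ADAM10 and ADAM17. IL6 signals through IL6R and the shared subunit gp130, which is encoded by IL6ST.

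Where a promoter window was found, the start regions of these genes were searched for letters that such factors bind. No window was found for CCL5, CXCL16 or CX3CL1. RefSeq promoter windows on GRCh38.p14, running from 250 bases before to 50 bases after the gene start, were found for 7 of the 10 genes: CXCL10, CXCL11, CXCL1, CXCL2, CXCL8, CCL20 and IL6. Each window was searched on both strands for an interferon-response core (ISRE core, GAAANNGAA), a shortened NF-kB pattern (kB-type, GGNNNTTCC), AP-1 (TGANTCA) and the STAT pattern GAS (TTCNNNGAA). The 250 bases before the start are printed for 4 genes, CXCL10, CXCL11 and IL6, whose groups did not overlap, and CXCL8, whose groups did, 5′ to 3′ on the strand of the gene, with motif matches in capitals. CXCL10 (chr4:76023498-76023747, minus strand) and CXCL11 (chr4:76036071-76036320, minus strand) are the CXCR3 ligands, CXCL8 (chr4:73740319-73740568, plus strand) stands for the neutrophil attractants, and IL6 is at chr7:22726950-22727199 on the plus strand.
CXCL10: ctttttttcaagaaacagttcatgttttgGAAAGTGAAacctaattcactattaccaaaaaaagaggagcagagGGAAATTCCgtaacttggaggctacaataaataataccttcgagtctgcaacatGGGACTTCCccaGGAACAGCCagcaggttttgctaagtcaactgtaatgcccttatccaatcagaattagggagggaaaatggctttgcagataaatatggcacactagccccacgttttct
CXCL11: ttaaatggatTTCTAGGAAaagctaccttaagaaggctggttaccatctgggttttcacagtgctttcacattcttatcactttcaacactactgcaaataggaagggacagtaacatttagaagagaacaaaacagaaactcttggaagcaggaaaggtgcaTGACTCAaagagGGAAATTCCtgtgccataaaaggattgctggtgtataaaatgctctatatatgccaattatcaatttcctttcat
CXCL8: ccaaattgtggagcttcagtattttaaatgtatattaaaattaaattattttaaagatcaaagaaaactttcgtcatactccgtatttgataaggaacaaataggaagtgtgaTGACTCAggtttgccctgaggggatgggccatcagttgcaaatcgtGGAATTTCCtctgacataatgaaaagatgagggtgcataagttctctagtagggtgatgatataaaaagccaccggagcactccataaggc
IL6: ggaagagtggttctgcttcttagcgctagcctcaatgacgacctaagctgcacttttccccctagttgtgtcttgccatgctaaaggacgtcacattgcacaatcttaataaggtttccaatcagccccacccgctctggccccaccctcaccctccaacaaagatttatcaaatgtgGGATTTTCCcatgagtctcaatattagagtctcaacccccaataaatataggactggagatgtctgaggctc

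In CXCL10 the ISRE core lies from -221 to -213 and is followed by 3 kB-type matches, from -176 to -168, from -122 to -114 and from -110 to -102. CXCL11 has a GAS match from -240 to -232, an AP-1 match from -87 to -81 and a kB-type match from -75 to -67, with another GAS match from 19 to 27 downstream of the start. CXCL8 has an AP-1 match from -137 to -131 and a kB-type match from -91 to -83. IL6 has a kB-type match from -72 to -64, and its ISRE core match lies downstream of the start, from 27 to 35. A kB-type match was present in 7 of the 7 windows, against 20.1% of all 35116 RefSeq windows of this length. The ISRE core was found in 3 windows (CXCL10, CXCL2 and IL6), against 8.11% of all windows. AP-1 was found in 2 windows and GAS in 1, against 7.71% and 7.66% of all windows. A match is a run of letters and not a measured binding site, and its absence from a window says nothing about the factor.

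**Figure D1:**
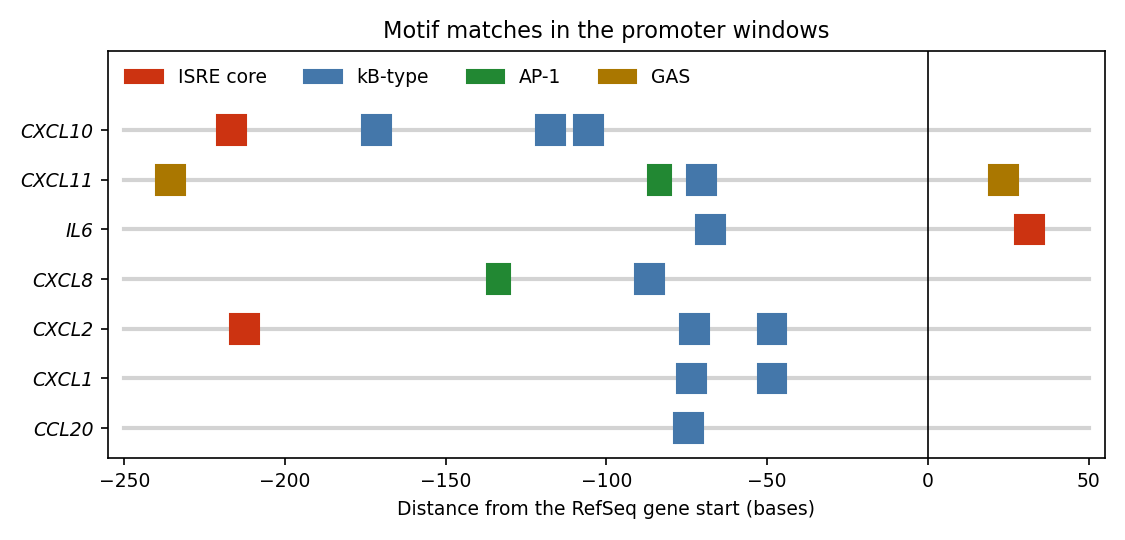
Motif matches in the RefSeq promoter windows of the 7 genes found, plotted by distance in bases from the gene start (vertical line); each box spans the letters of 1 match. The kB-type matches of all genes but CXCL10 sit between -91 and -45, and the ISRE core of CXCL10 and that of CXCL2 lie between -221 and -209.

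Sequencing gave between 45546981 and 85729785 reads per library, so that 1 read is worth between 0.0121 and 0.0202 of the normalized value. The normalized value is the reads of a gene relative to a scaled library size, without division by gene length. The targeted gene checks the labels: DUSP6 was at 209, 110 and 114 in scrambled siRNA replicates 1 to 3 and at 39.4, 24.5 and 35.2 in DUSP6 siRNA replicates 1 to 3. Its log2 fold change was -2.05 with an SE of 0.25 (adjusted p = 3.09e-04, limma). In the GENCODE annotation 24.1% of its exonic bases are shared with an antisense gene. Of 11 markers of luminal HER2-type breast cancer cells, 11 were tested. With DUSP6 siRNA 9 were lower, 1 was higher and 1 was not called, where 24.7% of all tested genes were lower and 19.7% higher. The lower markers included KRT19 (log2 fold change -1.81), SPDEF (-1.05) and ERBB2 (-0.99), and the marker called higher is not reported here by name. The summed value of the 11 markers ranged from 6164 to 7610 in the scrambled siRNA libraries and from 4229 to 4576 in the DUSP6 siRNA libraries. In bulk RNA of a cell line, fewer cells that express a marker and less of its RNA per cell cannot be told apart.

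Most of these genes were near the limit of detection in MDA-MB-453 cells. Only CCL5, CXCL16 and CXCL8 averaged 1 or more across all 6 libraries, the filter set for the main test, and CCL5 passed it only through the DUSP6 siRNA group. The other 6 genes in the table were under the filter and are described by their reads. In the main test, limma on log2(value + 1) with Benjamini-Hochberg adjustment over 12862 genes, 1 of the 3 genes tested was higher with DUSP6 siRNA (CCL5), where 19.7% of all tested genes were, and 0 were lower, where 24.7% of all tested genes were. The number lower was also 0 at an unadjusted p under 0.05. When the recovered reads of all 22807 genes were tested by the quasi-likelihood method of edgeR, 4 of 9 were called higher (CCL5, CXCL10, CXCL11 and IL6) against 14.2% of all genes, and 0 of 9 lower against 15.7%. With limma and no filter, 4 of 9 were called higher (CCL5, CXCL11, CX3CL1 and IL6) against 13.1% of all genes, and 0 lower against 14.0%. CCL5, CXCL11 and IL6 were the 3 called by both, and the share of all genes called by both was not computed. The groups did not overlap, with the DUSP6 siRNA libraries above, for 5 of 9 (CCL5, CXCL10, CXCL11, CX3CL1 and IL6), as for 21.6% of all genes. DUSP6 siRNA libraries were entirely below for 0 of 9, against 20.7% of all genes.

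**Figure D2:**
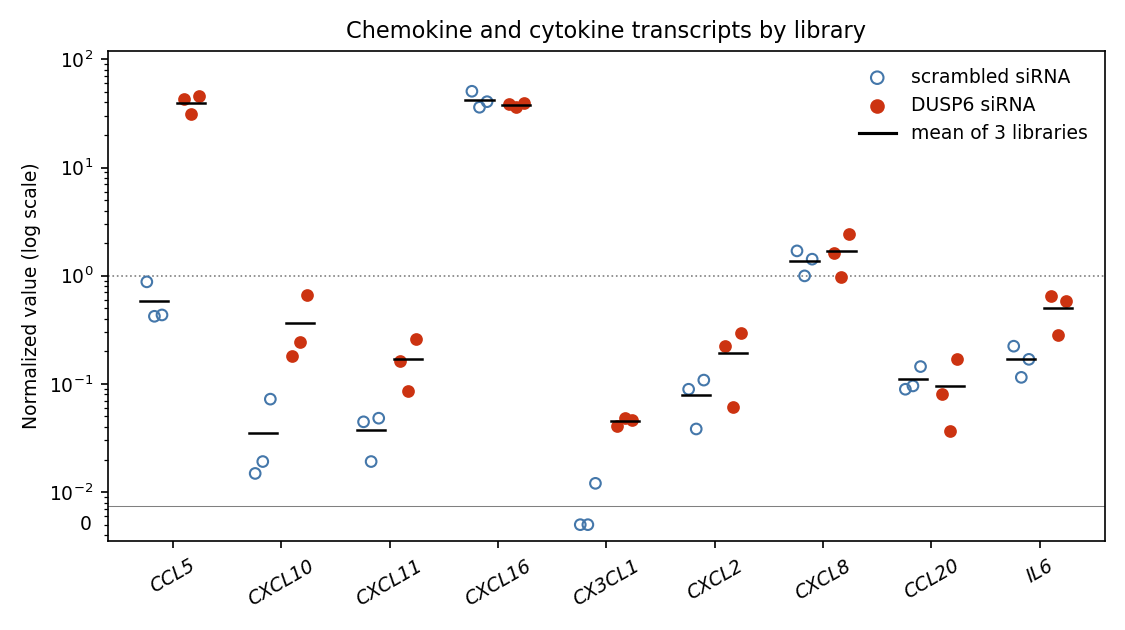
Normalized value (log axis) of the 9 genes in each of the 6 libraries; open circles are scrambled siRNA, filled circles DUSP6 siRNA, bars the mean of 3 libraries, the dotted line the filter at 1, and points in the lowest band are libraries with 0 reads (the mean of CX3CL1 in the scrambled libraries, 0.00402, is not drawn). CCL5 moved from below 1 to between 31.2 and 45.7, while CXCL16 stayed between 36.0 and 50.7 in all 6 libraries.

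CCL5, the attractant of T cells and monocytes, had by far the largest difference among these genes. The gene lies on chr17:35871491-35880360 (RefSeq, GRCh38.p14, minus strand). Its normalized values were 0.878, 0.422 and 0.434 in scrambled siRNA replicates 1 to 3, from 59, 22 and 36 reads. In DUSP6 siRNA replicates 1 to 3 they were 42.6, 31.2 and 45.7, from 2108, 2552 and 2960 reads. Every DUSP6 siRNA library stood far above every scrambled siRNA library, and the transcript went from under the filter to the level of a plainly expressed gene. The mean rose from 0.578 ± 0.260 (SD, n = 3) to 39.9 ± 7.65 (SD, n = 3). The log2 fold change was 4.69 (SE 0.17, 95% interval 4.30 to 5.08, adjusted p = 4.29e-07, limma), which ranked 19 of 12862 genes by size upward. Adding 1 to values below 1 shrinks this number: the ratio of the summed reads, scaled to library size, was 67.3 (95% counting interval 56.0 to 81.4), and edgeR gave a log2 fold change of 6.10 (adjusted p = 4.11e-13 with no filter). Counting intervals here cover counting error only. Leaving out each library in turn kept the edgeR log2 fold change between 5.88 and 6.53, called in 6 of 6 fits.

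The tested genes whose 6 differences from the scrambled siRNA mean lay closest to those of CCL5 were CMPK2 and HLA-B. CMPK2 is a mitochondrial nucleotide kinase gene induced by interferon, and HLA-B encodes a classical MHC class I heavy chain. Likeness was the Euclidean distance over 6 libraries between the differences of log2(value + 1) from the scrambled siRNA mean. It was 0.523 for CMPK2, whose mean went from 0.374 to 35.5 (log2 fold change 4.70). For HLA-B, whose mean went from 4.35 to 144 (log2 fold change 4.76), it was 0.679. CMPK2 passed the filter only through the DUSP6 siRNA group, where it is high. This distance takes in the size of the group difference, so a small distance is not a test of joint variation between libraries.

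CXCL10 and CXCL11, the CXCR3 ligands, were present at a few reads per library with scrambled siRNA and at more with DUSP6 siRNA. They lie side by side on chromosome 4, CXCL10 on chr4:76021118-76023497 and CXCL11 on chr4:76033682-76036070, both on the minus strand. With scrambled siRNA, CXCL10 was read 1, 1 and 6 times in replicates 1 to 3, giving values of 0.0149, 0.0192 and 0.0723. With DUSP6 siRNA it was read 9, 20 and 43 times, giving values of 0.182, 0.245 and 0.664. The lowest DUSP6 siRNA value was above the highest scrambled siRNA value, but the DUSP6 siRNA libraries also differed widely among themselves. The ratio of the summed reads, 72 against 8, was 9.30 after scaling (95% counting interval 4.47 to 22.3). edgeR with no filter called it higher (log2 fold change 3.18, adjusted p = 6.38e-04), in each of 6 fits that left out 1 library (2.43 to 4.29). limma with no filter did not call it (adjusted p = 0.0529). The exact permutation test gave p = 0.1, the smallest that 3 against 3 libraries allow. It gave the same value for CCL5, CXCL11, CX3CL1 and IL6.

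CXCL11 had 3, 1 and 4 reads with scrambled siRNA and 8, 7 and 17 reads with DUSP6 siRNA. Its values were 0.0446, 0.0192 and 0.0482 against 0.162, 0.0856 and 0.263, and the groups did not overlap. The ratio of the summed reads, 32 against 8, was 4.13 after scaling (95% counting interval 1.86 to 10.4). Both edgeR with no filter (log2 fold change 2.04, adjusted p = 0.0193) and limma with no filter (adjusted p = 0.0456) called it. The edgeR call held in 4 of 6 fits that left out 1 library and was lost without DUSP6 siRNA replicate 3 (adjusted p = 0.191) and without scrambled siRNA replicate 2 (adjusted p = 0.057). CXCL9, the remaining CXCR3 ligand and a gene chosen for mention after its values were seen, had 12, 0 and 0 reads with scrambled siRNA and 0, 1 and 2 with DUSP6 siRNA (edgeR with no filter, adjusted p = 0.320), with all of its scrambled siRNA reads in 1 library.

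CCL5 and the CXCR3 ligands were of very unequal size. For each read of CXCL10 there were 234, 128 and 68.8 reads of CCL5 in DUSP6 siRNA replicates 1 to 3, and 59, 22 and 6 in scrambled siRNA replicates 1 to 3. DUSP6 siRNA replicate 3 had the fewest CCL5 reads per CXCL10 read, and also the highest values of both genes (CCL5 45.7, CXCL10 0.664). The CXCL10 reads in the divisor (9, 20 and 43) varied more than those of CCL5 (2108, 2552 and 2960), so they set this order. Per kilobase of transcript, the mean level of CCL5 with DUSP6 siRNA was 30.7 ± 5.89 (SD, n = 3), that of CXCL10 was 0.309 ± 0.223 and that of CXCL11 was 0.115 ± 0.0601. With 1 read of CXCL10 in each of 2 scrambled siRNA libraries, the ratio in that group is set by counting error.

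**Figure D3:**
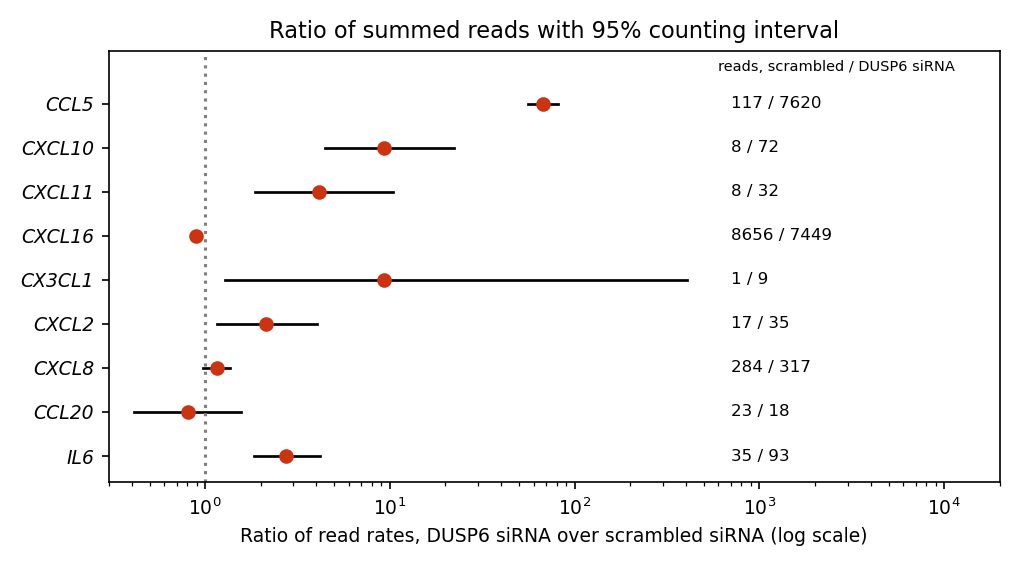
Ratio of read rates, DUSP6 siRNA over scrambled siRNA (log axis), for the 9 genes; points are summed reads of 3 libraries scaled to library size, lines the 95% counting interval, the dotted line equality, and the numbers at the right the reads summed over each group. CCL5 stands at 67.3, CXCL10 and CX3CL1 both at 9.30 with very different intervals, and CXCL16 at 0.889 with an interval that leaves out the spread between libraries, whose groups overlapped.

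CXCL16 and CX3CL1, the membrane-anchored chemokines, were the most and the least abundant of the 9 genes with scrambled siRNA. CXCL16 (chr17:4733533-4739928, minus strand), the ligand of CXCR6, was at 50.7, 36.0 and 40.6 with scrambled siRNA and at 38.7, 36.2 and 39.7 with DUSP6 siRNA. The DUSP6 siRNA libraries all lay within the range of the scrambled siRNA libraries. Scrambled siRNA libraries averaged 42.4 ± 7.48 (SD, n = 3), and DUSP6 siRNA libraries 38.2 ± 1.79 (SD, n = 3). The log2 fold change was -0.13 with a 95% interval from -0.42 to 0.16 (adjusted p = 0.416, limma), so a change of more than 0.42 in either direction on the log2 scale lay outside the interval. In GENCODE, 7.40% of its exonic bases are shared with MED11 and ZMYND15 on the other strand, and reads there cannot be assigned without strand. Its differences from the scrambled siRNA mean lay closest to those of TEX30 (distance 0.0754) and LOC100507642 (distance 0.0976), neither of which was called.

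CX3CL1 (chr16:57372490-57385044, plus strand), also called fractalkine, was the least abundant of the 9 genes, with 0, 0 and 1 reads with scrambled siRNA and 2, 4 and 3 with DUSP6 siRNA. The groups did not overlap, at values of 0, 0 and 0.0121 against 0.0404, 0.0489 and 0.0464. From 1 and 9 reads the ratio was 9.30, with a 95% counting interval from 1.29 to 407. limma with no filter called it (log2 fold change 0.06, adjusted p = 0.0207), edgeR with no filter did not (adjusted p = 0.0828). The sheddases showed no call: ADAM10 was at 236 ± 28.6 and 224 ± 20.0 (adjusted p = 0.620, limma) and ADAM17 at 48.9 ± 3.82 and 53.0 ± 4.83 (adjusted p = 0.392, limma), each SD over n = 3 and both genes chosen for mention as the known sheddases.

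The neutrophil attractants gave no stable difference. CXCL8 (chr4:73740569-73743716, plus strand) was at 1.70, 0.996 and 1.42 with scrambled siRNA and at 1.62, 0.966 and 2.44 with DUSP6 siRNA, from 284 and 317 reads in all. The groups overlapped, and the lowest value of all 6 was in a DUSP6 siRNA library, as was the highest. The log2 fold change was 0.15 (95% interval -0.31 to 0.61, adjusted p = 0.576, limma). Without DUSP6 siRNA replicate 3 it was -0.05. The tested genes closest to CXCL8 were SERPINB8 (distance 0.250) and TGIF1 (distance 0.314), neither of which was called.

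CXCL2 (chr4:74097040-74099195, minus strand) had 6, 2 and 9 reads with scrambled siRNA and 11, 5 and 19 with DUSP6 siRNA. Its values were 0.0893, 0.0383 and 0.108 against 0.222, 0.0611 and 0.294, and the groups overlapped through DUSP6 siRNA replicate 2. The ratio of the summed reads was 2.13 (95% counting interval 1.16 to 4.05), and edgeR with no filter did not call it (log2 fold change 1.15, adjusted p = 0.161). Without DUSP6 siRNA replicate 2 it was called (adjusted p = 0.0371, edgeR with no filter). CXCL2 is close in sequence to CXCL1 and CXCL3, so the assignment of some of its reads may be uncertain, which was not tested. Its 250 bases before the start hold an ISRE core match from -217 to -209 and kB-type matches from -77 to -69 and from -53 to -45, and CXCL1 (chr4:73869393-73871308, plus strand) holds kB-type matches from -78 to -70 and from -53 to -45.

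CCL20 (chr2:227813842-227817556, plus strand), which attracts CCR6-bearing cells, had 6, 5 and 12 reads with scrambled siRNA and 4, 3 and 11 with DUSP6 siRNA. Its values of 0.0893, 0.0958 and 0.145 against 0.0809, 0.0367 and 0.170 overlapped. The ratio was 0.808 (95% counting interval 0.411 to 1.57), and edgeR with no filter did not call it (adjusted p = 0.774). Its edgeR log2 fold change of -0.26 turned to 0.20 without DUSP6 siRNA replicate 2 and was -1.01 without DUSP6 siRNA replicate 3, and was called in 0 of 6 such fits.

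IL6, the inflammatory cytokine that drives the acute-phase response, was low in all libraries and higher with DUSP6 siRNA. The gene lies on chr7:22727200-22731998 (plus strand). It had 15, 6 and 14 reads with scrambled siRNA, at values of 0.223, 0.115 and 0.169, and 32, 23 and 38 reads with DUSP6 siRNA, at values of 0.647, 0.281 and 0.587. The groups did not overlap, with the gap narrowest between scrambled siRNA replicate 1 and DUSP6 siRNA replicate 2. The ratio of the summed reads, 93 against 35, was 2.74 (95% counting interval 1.84 to 4.17). edgeR with no filter called it higher (log2 fold change 1.51, adjusted p = 0.00618), in each of 6 fits that left out 1 library (1.31 to 1.83), and so did limma with no filter (adjusted p = 0.0292). In GENCODE, 4.70% of its exonic bases are shared with IL6-AS1 and STEAP1B on the other strand.

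Ordered by level per kilobase of transcript, CXCL16 led in the scrambled siRNA libraries at 18.3 ± 3.22 (SD, n = 3), followed by CXCL8 at 0.835 ± 0.215 and CCL5 at 0.445 ± 0.200. IL6 (0.150 ± 0.0480), CCL20 (0.132 ± 0.0363), CXCL2 (0.0706 ± 0.0325), CXCL10 (0.0302 ± 0.0272), CXCL11 (0.0252 ± 0.0107) and CX3CL1 (0.00122 ± 0.00212) came after. The library ranges of CXCL8 and CCL5, of IL6 and CCL20, of CXCL2 and CXCL10, and of CXCL10 and CXCL11 overlapped, so the order within these pairs is not set. With DUSP6 siRNA, CCL5 came first at 30.7 and CXCL16 second at 16.4 ± 0.772, with no overlap between them. Next were CXCL8 at 1.02 ± 0.450 and IL6 at 0.448 ± 0.174, whose ranges were also apart. IL6, CXCL10, CXCL2, CXCL11 and CCL20 then overlapped each with the next, and CX3CL1 remained last at 0.0138 ± 0.00132. The DUSP6 siRNA libraries kept a similar order for many of these genes: replicate 2 was the lowest for 7 of 9 and replicate 3 the highest for 7 of 9, with IL6 highest in replicate 1 and CX3CL1 highest in replicate 2. Scrambled siRNA replicate 2 was likewise the lowest for 6 of 9, not counting CX3CL1, which had 0 reads in replicates 1 and 2. For 6 of 9 replicate 2 was the lowest in both groups (CCL5, CXCL11, CXCL16, CXCL2, CXCL8 and IL6). Even so, over all genes the replicate numbers did not pair the libraries. How often each library was lowest or highest over all genes was not counted.

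The rest of the chemokine family was sparse. Of 34 other chemokine genes listed, 21 were in the table and 2 had a mean value of at least 1. CCL28, a mucosal chemokine of epithelial cells, fell from 31.7 ± 2.55 to 23.2 ± 1.61 (SD, n = 3 each, log2 fold change -0.44, adjusted p = 0.00929, limma), and CCL22 was not called (2.36 and 3.54, adjusted p = 0.0909, limma). Thus 0 were higher and 1 lower among the 2 tested, against 19.7% and 24.7% of all tested genes. Over all genes, above and under the filter, edgeR with no filter called 14.2% higher and 15.7% lower. The shares among genes under the filter alone were not computed. Among the 19 chemokine genes under the filter it called 0 higher and 1 lower. That gene was CCL2, the monocyte attractant, named after its values were seen: 31, 13 and 24 reads with scrambled siRNA against 4, 4 and 1 with DUSP6 siRNA (adjusted p = 4.16e-04).

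Of 24 chemokine and IL6 receptors listed, 23 were in the table and 4 were tested. Among these 1 was higher and 1 lower, against 19.7% and 24.7% of all tested genes. IL6ST, the gp130 subunit through which IL6 signals, rose from 4.92 ± 0.516 to 14.8 ± 2.81 (log2 fold change 1.41, SE 0.14, adjusted p = 1.23e-04, limma). CX3CR1, the receptor of CX3CL1, fell from 1.57 ± 0.607 to 0.570 ± 0.138 (log2 fold change -0.69, adjusted p = 0.0108, limma), and passed the filter only through the scrambled siRNA group, where it is high. IL6R was not called, at 88.3 ± 10.6 and 84.2 ± 12.9 (adjusted p = 0.688, limma), nor was CXCR4, at 11.6 ± 2.05 and 14.1 ± 1.26 (adjusted p = 0.148, limma), each SD over n = 3. CXCR3, the receptor of CXCL10 and CXCL11, had 5, 4 and 0 reads against 2, 1 and 0. With no filter, edgeR called 14.2% of all genes higher and 15.7% lower, and the shares among genes under the filter alone were not computed. Among the 19 receptors under the filter it called 1 higher and 4 lower. The higher was CCR6, the receptor of CCL20, with 5, 3 and 9 reads against 20, 15 and 16 (adjusted p = 0.0118). Of the lower, CXCR1, a receptor of CXCL8, had 19, 59 and 47 reads against 6, 5 and 11 (adjusted p = 6.23e-04). IL6R, CXCR4, CXCR3, CCR6 and CXCR1 were named for their ligands, after their values were seen.

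Of 39 other cytokine genes listed, 36 were in the table and 10 were tested. Among these 1 was higher and 3 lower, against 19.7% and 24.7% of all tested genes. IL15, which supports T and NK cells, rose from 0.574 ± 0.151 to 2.38 ± 0.473 (log2 fold change 1.10, adjusted p = 3.43e-04, limma), and passed the filter only through the DUSP6 siRNA group, where it is high. TGFB3 fell from 349.8 ± 12.0 to 166 ± 9.72 (log2 fold change -1.08), IL18 from 3.20 ± 0.950 to 1.07 ± 0.364 (-1.01) and IL16 from 3.45 ± 0.649 to 1.86 ± 0.226 (-0.63), with SD over n = 3 each. Of all genes, above and under the filter, edgeR called 14.2% higher and 15.7% lower, with no share computed for those under it alone. Among the 26 cytokine genes under the filter it called 3 higher and 2 lower. They included TNF, the activator of NF-kB, lower with 26, 19 and 32 reads against 4, 12 and 12 (adjusted p = 0.00805), and CSF1, the macrophage growth factor, higher with 4, 7 and 15 reads against 45, 48 and 81 (adjusted p = 1.76e-05), both named after their values were seen.

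Transcription factors and inhibitors upstream of these genes moved in both directions. Of 34 listed, 31 were tested, with 14 higher and 4 lower, against 19.7% and 24.7% of all tested genes. The median log2 fold change of the 31 was 0.30 beside -0.01 over all genes tested. IRF9, the DNA-binding subunit of the ISGF3 complex that acts downstream of interferon receptors, rose from 17.2 ± 8.03 to 222 ± 2.71 (log2 fold change 3.70, adjusted p = 1.07e-05, limma), and IRF7 from 24.4 ± 7.65 to 163 ± 32.1 (2.71), with SD over n = 3. IKBKE, a kinase that acts on interferon regulatory factors, fell from 27.4 ± 1.51 to 8.08 ± 1.27 (log2 fold change -1.65, adjusted p = 2.37e-05, limma), and IRF2 fell from 25.1 ± 4.77 to 12.7 ± 1.41 (-0.92). JUNB, an AP-1 subunit, fell by 0.70 on the log2 scale (adjusted p = 0.0257, limma). Its call was lost without DUSP6 siRNA replicates 2 or 3 or scrambled siRNA replicates 1 or 2 (adjusted p between 0.0576 and 0.0888) and under quantile normalization (0.0515). Other genes of AP-1 and related factors, named after their values were seen, went the other way: ATF3 was higher (log2 fold change 1.37, adjusted p = 2.60e-04, limma; called in 23 of 23 fits), and JUND was higher (0.30, adjusted p = 0.0432, limma) but called in only 8 of 23 fits. JUN (-0.04) and FOS (-0.51) were not called.

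Among the NF-kB genes, named after their values were seen, NFKB1 (log2 fold change 0.59), RELB (0.93) and NFKB2 (0.50) were higher, and so was TNFAIP3, the NF-kB inhibitor A20 (1.62). REL (0.29) and RELA (-0.18), the gene of the p65 subunit, were not called, nor was the inhibitor NFKBIA (-0.12, adjusted p = 0.434, limma). NFKB1, RELB and TNFAIP3 were called in all fits that tested them, including every scaling. NFKB2 was called in 22 of 23 fits, the exception being limma without DUSP6 siRNA replicate 3 (adjusted p = 0.0637).

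**Figure D4:**
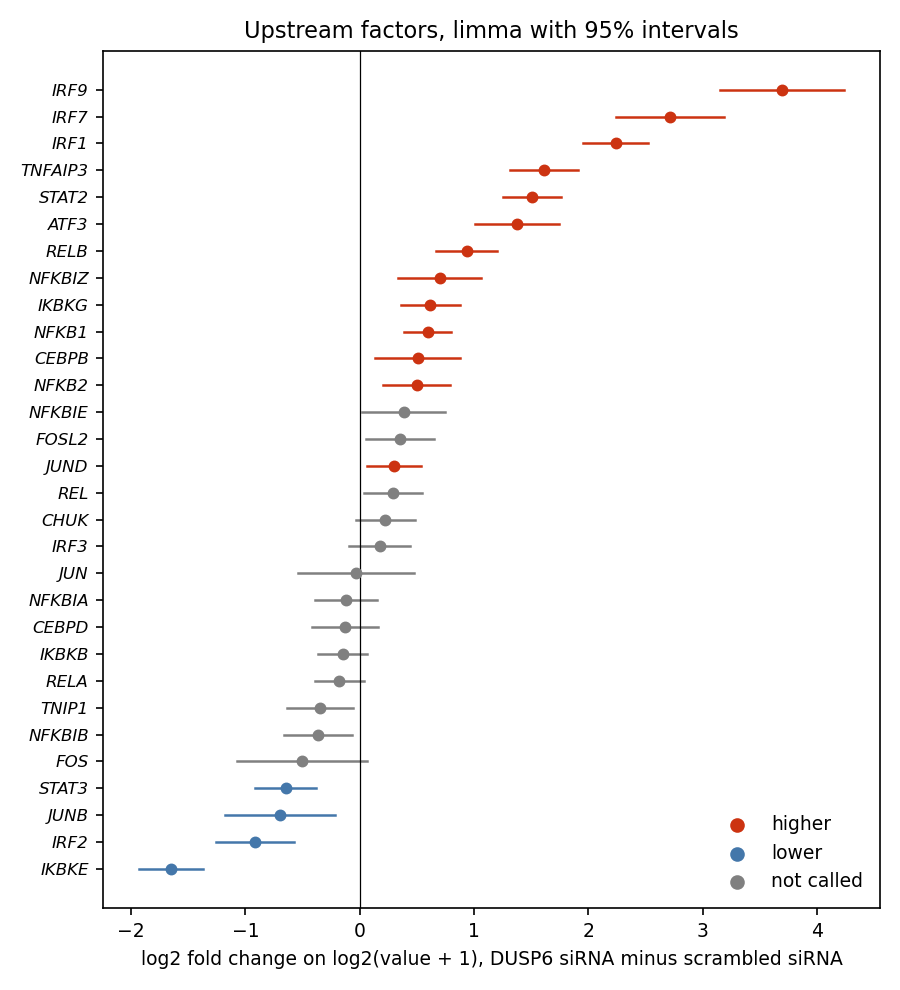
Log2 fold change on log2(value + 1) of the tested upstream factors that are reported, DUSP6 siRNA minus scrambled siRNA, with unadjusted 95% intervals from limma; red was called higher, blue lower and grey not called at the adjusted threshold, so some grey intervals stop short of 0. IRF9 and IRF7 lead at 3.70 and 2.71, and IKBKE is lowest at -1.65.

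Of 17 genes whose proteins act on these transcripts or on the secreted proteins, 16 were in the table and 14 were tested. Among these 0 were higher and 4 lower, against 19.7% and 24.7% of all tested genes, and the median log2 fold change was -0.12. ZFP36L1, which encodes a relative of tristetraprolin, fell from 628 ± 172 to 319.9 ± 54.2 (log2 fold change -0.94, adjusted p = 0.0064, limma) and HNRNPD, which encodes the RNA-binding protein AUF1, from 314 ± 31.4 to 196 ± 17.3 (-0.68, adjusted p = 0.00117, limma), with SD over n = 3. ZFP36L2 was the remaining lower gene outside the naming rule (-0.44, adjusted p = 0.0265, limma). ZFP36, which encodes tristetraprolin, fell by 0.60 on the log2 scale (adjusted p = 0.0405, limma), and its call was lost without DUSP6 siRNA replicates 2 or 3 or scrambled siRNA replicates 1 or 2 (adjusted p between 0.0514 and 0.134) and under quantile normalization (0.0804).

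Leukocytes, endothelium and fibroblasts also make these proteins, so their markers are given beside the results. Of 20 such markers, 14 were in the table and 1 was tested: COL1A1 rose from 92.2 ± 12.2 to 173 ± 16.7 (SD, n = 3 each, log2 fold change 0.90, adjusted p = 4.21e-04, limma). The summed value of the 14 ranged from 81.4 to 106 with scrambled siRNA and from 163 to 193 with DUSP6 siRNA, nearly all of it COL1A1. Without COL1A1 the other 13 summed to between 0.747 and 0.878 with scrambled siRNA and between 0.927 and 1.16 with DUSP6 siRNA, and none exceeded 0.367 in any library. PTPRC, the leukocyte marker CD45, had 1, 0 and 3 reads against 4, 3 and 3. The T cell marker CD3G had 0 reads in all scrambled siRNA libraries and 1, 0 and 0 with DUSP6 siRNA. The part of such cells in the results for CCL5, CXCL10, CXCL11, CX3CL1 and IL6 was not tested.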

How the data were processed

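RNA from 6 MDA-MB-453 libraries, 3 per group, was sequenced; per the methods the authors aligned reads to hg38 and assigned them to RefSeq genes with Rsubread at default settings, which do not use strand although the kit keeps it. The deposited values are an edgeR-scaled signal, reads relative to a TMM-scaled library size, with no length correction. Dividing each column by its smallest positive value gave whole reads for 100% of values (tolerance 1e-06). Reads per library were between 45546981 and 85729785, which limits precision through counting error. From these values, limma 3.58.1 (R 4.3.3, eBayes with a trend) was run on log2(value + 1) for genes with a mean of at least 1, with an adjusted p under 0.05 as the threshold. On the recovered reads, edgeR 4.0.16 and DESeq2 1.42.0 were alternatives, and edgeR with no filter, also leaving out each library, was added after seeing the data, since 6 of 9 genes were under the filter. Counting intervals are 95% Clopper-Pearson. Two-sided exact permutation tests used the difference of mean log2(value + 1). The genes and lists were chosen with earlier results of these data known. Named were the 10 genes, DUSP6, up to 3 called, non-overlapping genes per list and direction by fold change, and the 2 closest genes by Euclidean distance. Some genes of the lists are counted but not reported here by name. Scripts were tested on simulated data. No pair of libraries agreed within sampling noise (chi-square per degree of freedom 8.05 or more). Coordinates and promoter sequences are RefSeq on GRCh38.p14, and shared exonic bases are from GENCODE.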

Additional observations from a re-analysis of the deposited data

How the results depend on the processing

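The results for DUSP6 and CCL5 kept direction and call under every alternative run: pseudocount 0.1, no filter, a mean of at least 10, median of ratios, quantile normalization, no trend, a replicate block, edgeR, DESeq2 and leaving out each library. When a library was left out the limma log2 fold change of CCL5 was 4.58 to 4.85 and that of DUSP6 -2.22 to -1.76, and the pseudocount of 0.1 gave 5.93 for CCL5. Scaling moved the median of all genes by less than 0.1 on the log2 scale. The number of genes higher, 2540 in the main test, was 1639 with a mean of at least 10, where fewer genes were tested, and 1574 to 3183 when a library was left out, lowest without DUSP6 siRNA replicate 2. Of the 9 genes, 4 were higher with no filter and 4 with edgeR and no filter, against 1. Other chemokines lower were 2 with no filter and 2 with edgeR and no filter, and 0 to 1 were higher when a library was left out, 1 without DUSP6 siRNA replicate 2 or scrambled siRNA replicate 2. Receptors higher were 2 with no filter, 2 with edgeR and no filter and 0 with a mean of at least 10; receptors lower were 4, 5 and 0. Other cytokines higher were 3, 4 and 0, and 1 to 2 when a library was left out, 2 without DUSP6 siRNA replicate 2 or scrambled siRNA replicate 2; other cytokines lower were 5, 6 and 1. Upstream factors lower were 3 to 7 when a library was left out, 7 without scrambled siRNA replicate 3. Genes acting on the transcripts or proteins lower were 2 with no filter, 2 under quantile normalization, and 2 to 5 when a library was left out, 2 without DUSP6 siRNA replicate 2 or scrambled siRNA replicate 1. Where not stated, the cause was not tested. The calls of JUNB and ZFP36 were also lost with no filter (adjusted p = 0.0634 and 0.0899, limma).

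The replicate numbers shared by the groups did not pair the libraries (correlations of same-numbered deviations 0.005, 0.0868 and -0.0764). With the replicate block, 2495 genes were higher and 3096 lower, 1 of the 3 tested genes was higher and 0 lower, and among the upstream factors 13 were higher and 6 lower. Depth limits CXCL10, CXCL11, CX3CL1, CXCL2, CCL20 and IL6, which had at most 43 reads in any library.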
